A study of Homo sapiens with 6 samples.

Results

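The 35 mitosis genes described here encode the cyclins, kinases, kinetochore proteins, motors and spindle proteins of cell division. They were taken as a fixed list of symbols and matched by Ensembl identifier to 35 of 67026 genes in a table of read counts, of which 33 were tested. RNA came from 6 xenograft tumours of PC-3 (a human cell line from a bone metastasis of prostate cancer), grown under the skin of male NSG mice. This strain lacks lymphocytes and natural killer cells but keeps neutrophils and macrophages. In both groups the cells had been transduced with a lentiviral short hairpin RNA and selected with puromycin, and the hairpin targeted GFP in the control group (shGFP, 3 tumours) and versican (VCAN) in the knockdown group (shVCAN, 3 tumours). Mice were 4 to 5 weeks old, received the cells in Matrigel, and tumours grew for 4 weeks. The labels give no batch, do not tie numbered tumours to animals and name 1 hairpin label per group, so p-values measure the spread between these tumours only. The comparison asks how expression differs when versican, a proteoglycan of the extracellular matrix, is reduced.

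Mitosis genes are transcribed in late S and G2 phase and are low in cells that are not cycling. In resting cells the DREAM complex holds them down through its MuvB core, and in cycling cells MuvB joins B-Myb and FOXM1 and switches them on. MuvB contacts DNA at the cell cycle genes homology region (CHR), often near CCAAT boxes bound by NF-Y. In anaphase and at mitotic exit the anaphase-promoting complex, with its activator CDC20 and its ubiquitin-conjugating enzyme UBE2C, marks cyclins and other mitotic proteins for destruction. A tumour is a mixture, so a higher level of these transcripts can come from more cells in late cell cycle or from more RNA per cell, which bulk libraries cannot tell apart.

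Libraries held 11253058 to 13327617 counts. VCAN was lower in all shVCAN tumours, with 133, 104 and 121 counts in the shGFP tumours and 69, 39 and 44 in the shVCAN tumours. Its log2 fold change was −1.53 (SE 0.207, edgeR quasi-likelihood adjusted p = 4.59e-07), and by exact permutation of the 6 values (both sides) p was 0.1, the lowest reachable with 3 against 3. The epithelial genes KRT19 and KRT18 and the intermediate filament gene VIM were present in every tumour (means of 601, 417 and 1871 CPM in shGFP), while the prostate secretory genes KLK3 and KLK2 had no count in any, and PC-3 is known to lack them. Values are counts-per-million on TMM-scaled library sizes (CPM) as mean ± SD (n = 3 tumours per group) or for single tumours in the order of their numbers. Fold changes are log2 of shVCAN over shGFP from edgeR's quasi-likelihood fit of all tested genes with its standard error (SE), and a gene rose or fell where the Benjamini-Hochberg adjusted p over all genes was under 0.05.

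Mitosis genes were mostly higher in the versican knockdown tumours, by modest amounts. Of 33 tested members 23 rose, 0 fell and 10 were not called. Among all 16254 tested genes 19.2% rose and 21.1% fell, and among the 10030 tested genes within the members' range of mean level (8.08 to 254.4 CPM) 22.6% rose and 27.4% fell. The median log2 fold change was 0.38 over the members and 0.0014 over all tested genes. The rises of the 23 ran from 1.11-fold to 1.66-fold, with 8 of at least 1.5-fold and 0 of 2-fold or more. In 26 members every shVCAN tumour lay above every shGFP tumour, against 23.9% of tested genes, and in 0 members all shVCAN tumours were below, against 24.8%. The summed level of the 35 genes was 1583, 1702 and 1651 CPM in shGFP tumours 1, 2 and 3 and 2088, 2135 and 2180 CPM in shVCAN tumours 1, 2 and 3, without overlap between the groups. With library size alone in place of TMM, 30 members rose and 0 fell, where 32.2% of all genes rose and 11.6% fell and the median of all genes moved to 0.168 (73.4% of calls higher, against 47.7%). Within a group the members varied little between tumours, with a median coefficient of variation of 6.21% and a maximum of 20.1%.

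**Figure D1:**
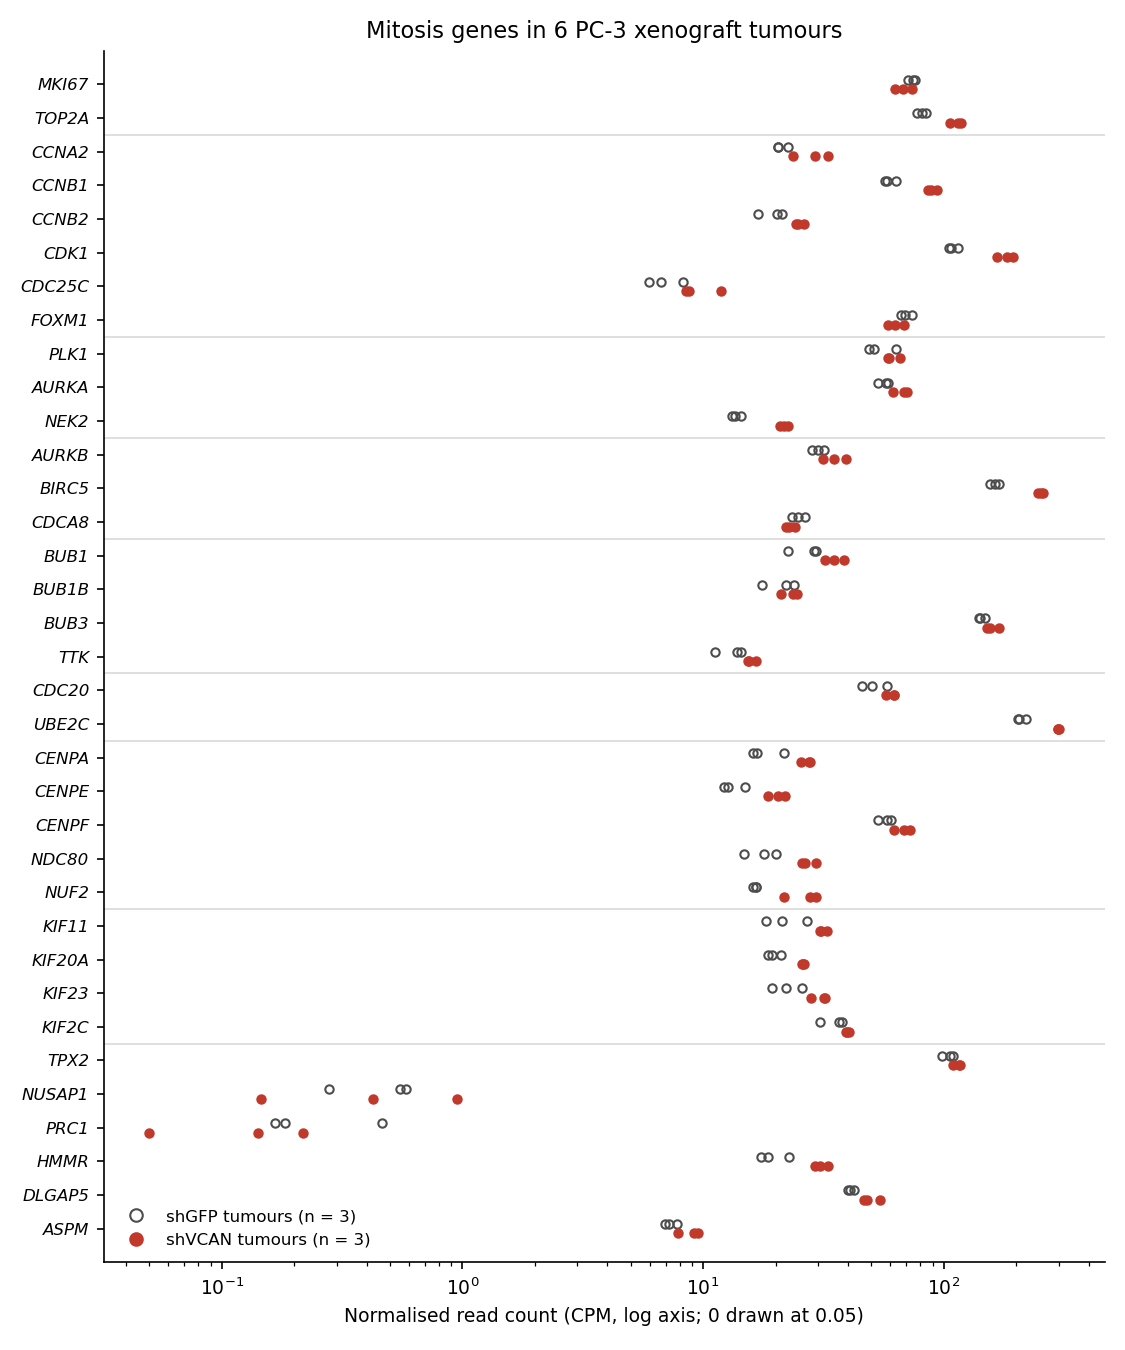
Level of each mitosis gene in each tumour, in CPM on a log axis, grouped by role between grey lines, with open points for the 3 shGFP tumours and filled points for the 3 shVCAN tumours. In UBE2C, BIRC5 and CDK1 the groups are clearly apart, MKI67 and FOXM1 overlap, and NUSAP1 and PRC1 lie below 1 CPM.

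Promoter sequence was not used to choose the members. As described above, mitosis genes are regulated through CHR elements, often near CCAAT boxes. A high share of matches among them is therefore not an independent finding. RefSeq promoter windows (GRCh38.p14, 250 bases before to 50 after the start) matched 28 of the 35 members, with 33 windows. The members without a window were FOXM1, AURKA, BIRC5, BUB3, TTK, UBE2C and TPX2. A CHR match (TTTGAA, either strand) was present in 20 of the 28 (71.4%), against 14.1% of 11443 tested genes with a window. A CCAAT match (CCAAT, either strand) was present in 23 (82.1%, against 42.7%), and both in 17 (60.7%, against 5.79%). In 2 members, MKI67 and CDCA8, a CHR match and a CCAAT match share bases. A match is a string of letters and not a measured binding site.

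Both motifs occurred among members that rose and members that were not called. CHR matches were in 13 of 19 members that rose and in 5 of 7 that were not called, and CCAAT matches in 16 of 19 and 5 of 7. Shown here are the stretches of 110 bases directly before the start, 5′ to 3′ on the gene's strand, of the members that hold a match there and of which at most 30 bases fall in a GENCODE 29 exon. Capitals mark CHR matches (TTTGAA, or TTCAAA on the other strand) and CCAAT matches (CCAAT, or ATTGG on the other strand). The first 4 genes rose and the last 2 were not called.
CDC20 (chr1:43358871-43358980, plus strand): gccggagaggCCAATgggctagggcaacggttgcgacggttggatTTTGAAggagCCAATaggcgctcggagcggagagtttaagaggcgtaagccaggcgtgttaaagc
NEK2 (chr1:211675622-211675731, minus strand): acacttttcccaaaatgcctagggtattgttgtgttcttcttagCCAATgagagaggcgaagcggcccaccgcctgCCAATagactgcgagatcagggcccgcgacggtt
CENPF (chr1:214603085-214603194, plus strand): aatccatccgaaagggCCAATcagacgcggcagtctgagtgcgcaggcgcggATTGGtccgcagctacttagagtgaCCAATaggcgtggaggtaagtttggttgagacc
KIF11 (chr10:92593020-92593129, plus strand): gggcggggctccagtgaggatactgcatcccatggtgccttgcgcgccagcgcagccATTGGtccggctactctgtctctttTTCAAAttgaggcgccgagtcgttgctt
MKI67 (chr10:128126424-128126533, minus strand): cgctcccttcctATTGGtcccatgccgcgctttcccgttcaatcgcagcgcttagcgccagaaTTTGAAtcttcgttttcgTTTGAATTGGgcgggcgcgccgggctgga
ASPM (chr1:197146670-197146779, minus strand): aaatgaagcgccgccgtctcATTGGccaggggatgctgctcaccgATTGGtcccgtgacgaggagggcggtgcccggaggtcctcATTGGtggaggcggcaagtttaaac

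**Figure D2:**
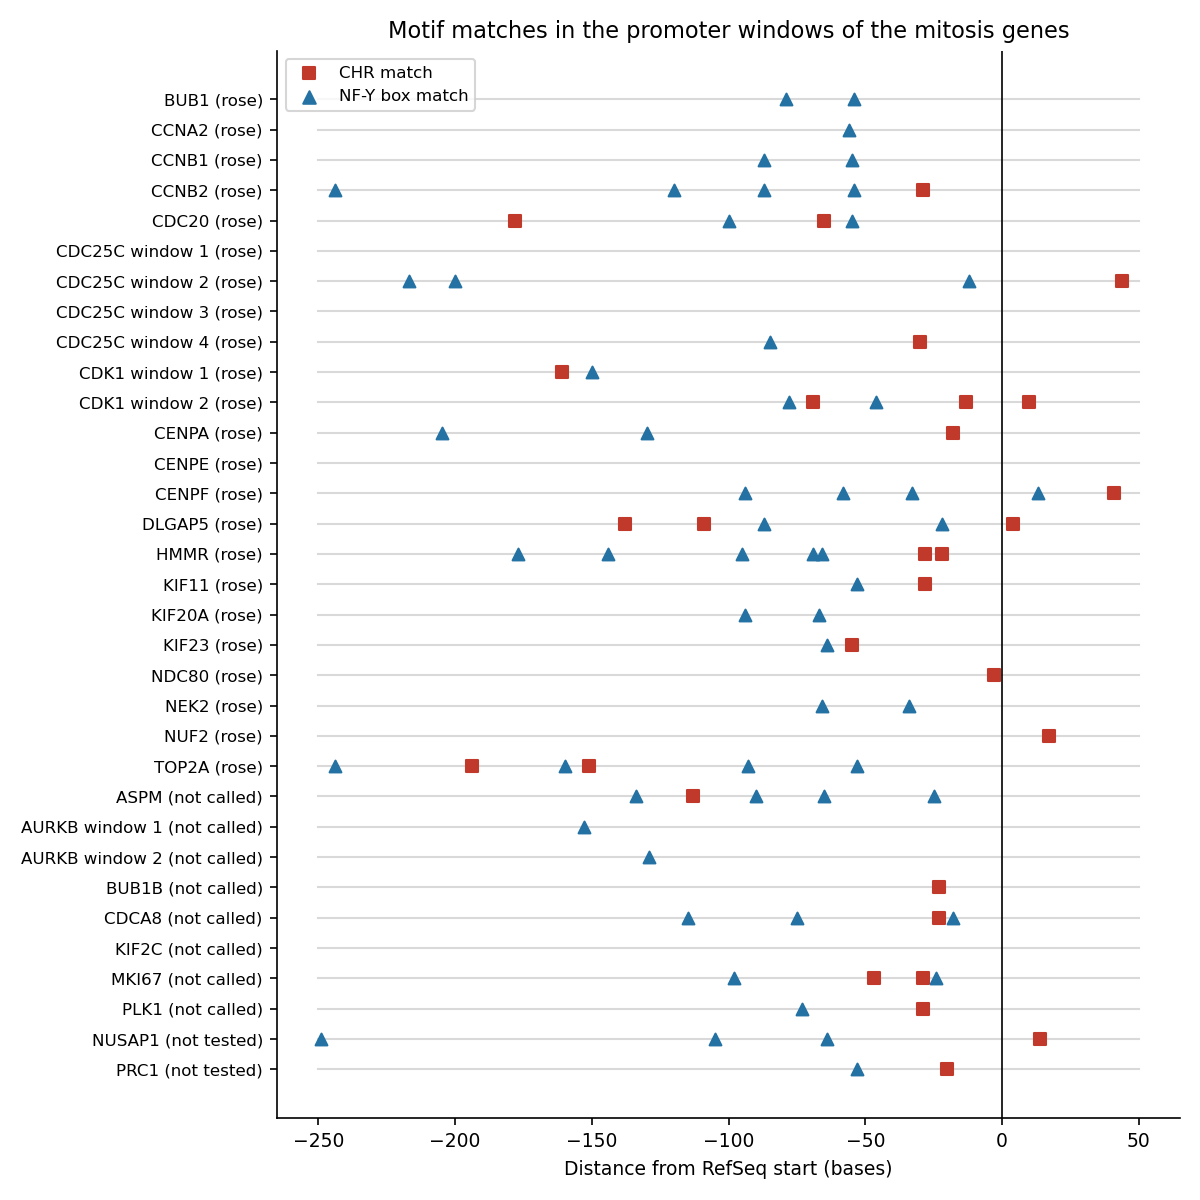
Positions of CHR matches (squares) and NF-Y box matches (CCAAT, triangles) relative to the RefSeq start, for the 33 promoter windows of 28 mitosis genes, with the call of each gene in brackets. In 13 genes a CHR match starts within the 60 bases before the start of transcription. These include genes that rose, genes that were not called and PRC1, which was not tested.

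Of the 6 members grouped here under mitotic entry 5 rose, all but the transcription factor FOXM1. CDK1, the kinase that drives cells into mitosis (ENSG00000170312.16, chromosome 10, 60778331 to 60794852, GRCh38), had 105, 114 and 107 CPM in shGFP tumours 1, 2 and 3 and 184, 166 and 193 CPM in shVCAN tumours 1, 2 and 3. The groups were far apart, and the log2 fold change of 0.73 (SE 0.0616, adjusted p = 4.52e-11) was the largest of the members. Its partner cyclin B1 (CCNB1) was measured at 57.1, 63.4 and 58.0 CPM in the shGFP tumours and 85.8, 93.7 and 88.4 CPM in the shVCAN tumours, a log2 fold change of 0.59 (SE 0.0690, adjusted p = 4.11e-08). The paralog cyclin B2 (CCNB2) rose from 19.5 ± 2.21 to 25.1 ± 0.954 CPM, by 0.37 (SE 0.111, adjusted p = 0.00831), and was not called without shGFP tumour 1 (adjusted p = 0.0696). The difference between the cyclins was not tested. Cyclin A2 (CCNA2), which acts in S and G2 phase, rose from 21.2 ± 1.15 to 28.6 ± 4.70 CPM, by 0.43 (SE 0.115, adjusted p = 0.00285). CDC25C, a phosphatase that activates CDK1, was second lowest in mean CPM over the 6 tumours among tested members, with 64 to 163 counts per library. It rose from 6.94 ± 1.16 to 9.71 ± 1.89 CPM, by 0.48 (SE 0.182, adjusted p = 0.0333), a call lost without shGFP tumour 1, shGFP tumour 2 or shVCAN tumour 3 (adjusted p = 0.0822, 0.124 and 0.239).

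FOXM1, a transcription factor that activates many of the other members, was not called in either direction. It had 66.6, 68.9 and 73.8 CPM in the shGFP tumours and 63.0, 68.7 and 58.9 CPM in the shVCAN tumours, with overlap, and a log2 fold change of −0.13 (SE 0.0731, adjusted p = 0.146). Without shVCAN tumour 2 that value was −0.19 (adjusted p = 0.0323), and with library size alone it was 0.032. Of the proliferation markers only TOP2A was called. TOP2A, the topoisomerase that untangles chromosomes, rose from 77.6, 81.2 and 84.4 CPM in the shGFP tumours to 115, 106 and 118 CPM in the shVCAN tumours, by 0.48 (SE 0.0646, adjusted p = 4.64e-07). MKI67, which encodes the Ki-67 protein that coats mitotic chromosomes and is the usual stain for dividing cells, had 71.1, 76.3 and 74.7 CPM in the shGFP tumours and 62.9, 73.9 and 67.9 CPM in the shVCAN tumours. These groups overlap, and the log2 fold change was −0.12 (SE 0.0712, adjusted p = 0.202). Without shVCAN tumour 2 the value for MKI67 was −0.18 (adjusted p = 0.0447), and it was 0.050 with library size alone.

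Of the mitotic kinases 2 rose. NEK2, which splits the centrosomes at mitotic entry, had 14.4, 13.6 and 13.2 CPM in the shGFP tumours and 21.6, 22.5 and 20.9 CPM in the shVCAN tumours. The narrow groups were well separated, with a log2 fold change of 0.66 (SE 0.118, adjusted p = 3.75e-05). Aurora A (AURKA), a spindle pole kinase, rose from 56.6 ± 2.91 to 66.7 ± 4.63 CPM, by 0.24 (SE 0.0742, adjusted p = 0.0104), a call lost without shGFP tumour 1 or shVCAN tumour 3 (adjusted p = 0.0645 and 0.0664). PLK1, which acts from centrosomes to the midbody, had 49.1, 63.4 and 51.5 CPM in the shGFP tumours and 59.4, 66.0 and 58.5 CPM in the shVCAN tumours. Its shGFP tumour 2 lay above shVCAN tumours 1 and 3, and the log2 fold change was 0.17 (SE 0.0841, adjusted p = 0.116). Without shGFP tumour 2 PLK1 was called, at 0.30 (adjusted p = 0.00792).

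In the chromosomal passenger complex, which corrects faulty spindle attachments, 1 of 3 members rose. Survivin (BIRC5), the subunit that binds histone H3 at centromeres, had 156, 169.9 and 163 CPM in the shGFP tumours and 247, 259 and 255 CPM in the shVCAN tumours. All shVCAN tumours were higher by a wide margin, with a log2 fold change of 0.64 (SE 0.0529, adjusted p = 3.61e-11). The kinase of the complex, Aurora B (AURKB), had 30.1, 31.96 and 28.3 CPM in the shGFP tumours and 31.4, 34.9 and 39.3 CPM in the shVCAN tumours, a log2 fold change of 0.22 (SE 0.0972, adjusted p = 0.0658) that was called without shVCAN tumour 1 (0.30, adjusted p = 0.0309). Borealin (CDCA8), a scaffold subunit, had 23.5, 26.6 and 24.8 CPM in the shGFP tumours and 22.1, 22.7 and 24.2 CPM in the shVCAN tumours and a log2 fold change of −0.12 (SE 0.104, adjusted p = 0.401). The sign for CDCA8 was negative except with library size alone (0.049).

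Spindle checkpoint genes, whose products delay anaphase until every chromosome is attached, gave 2 rises among 4 members. The kinase BUB1 rose from 27.0 ± 3.94 to 35.2 ± 3.07 CPM, by 0.38 (SE 0.105, adjusted p = 0.0041). The adaptor BUB3, the most abundant of these in CPM, rose from 143 ± 4.66 to 159 ± 9.30 CPM, by 0.15 (SE 0.0578, adjusted p = 0.0375), a call lost without shGFP tumour 1, shGFP tumour 2 or shVCAN tumour 3 (adjusted p = 0.114, 0.0743 and 0.227). BUB1B, which encodes the checkpoint protein BubR1, had 17.6, 22.2 and 23.9 CPM in the shGFP tumours and 23.7, 21.2 and 24.7 CPM in the shVCAN tumours and overlapping groups, with a log2 fold change of 0.13 (SE 0.118, adjusted p = 0.415). TTK, the kinase that starts checkpoint signalling, had 14.3, 13.8 and 11.2 CPM in the shGFP tumours and 15.4, 15.6 and 16.6 CPM in the shVCAN tumours. Its groups did not overlap, but its log2 fold change of 0.27 (SE 0.133, adjusted p = 0.108) was not called.

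Both partners of the anaphase-promoting complex rose. UBE2C, the enzyme that starts ubiquitin chains on its targets, had 204, 219.5 and 205 CPM in the shGFP tumours and 302, 299 and 297 CPM in the shVCAN tumours. The shVCAN tumours agreed within a few CPM, and the log2 fold change was 0.52 (SE 0.0505, adjusted p = 1.18e-09). The activator CDC20, whose promoter stretch above holds a CHR match between CCAAT matches, had 45.9, 58.3 and 50.5 CPM in the shGFP tumours and 57.3, 62.2 and 62.3 CPM in the shVCAN tumours. Its shGFP tumour 2 reached the level of the shVCAN tumours, and the rise of 0.24 (SE 0.0812, adjusted p = 0.0204) was lost without shGFP tumour 1, shGFP tumour 3 or shVCAN tumour 3 (adjusted p = 0.162, 0.0625 and 0.0716).

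All 5 centromere and kinetochore genes rose, and in each the groups did not overlap. NDC80 and NUF2 encode partners within the complex that grips microtubules. NUF2 had 16.7, 16.5 and 16.1 CPM in the shGFP tumours and 21.8, 29.4 and 27.9 CPM in the shVCAN tumours, a log2 fold change of 0.68 (SE 0.119, adjusted p = 2.66e-05). NDC80 had 14.7, 20.2 and 17.99 CPM in the shGFP tumours and 26.4, 25.7 and 29.3 CPM in the shVCAN tumours, a log2 fold change of 0.63 (SE 0.117, adjusted p = 6.76e-05). Their fitted changes lay within 1 SE of each other. CENPA, the histone variant that marks centromeres, rose from 18.2 ± 3.01 to 27.0 ± 1.31 CPM, by 0.57 (SE 0.116, adjusted p = 0.000187). CENPE, a kinetochore motor that moves chromosomes to the spindle equator, rose from 13.3 ± 1.45 to 20.3 ± 1.66 CPM, by 0.61 (SE 0.126, adjusted p = 0.000226). CENPF, a large protein of the outer kinetochore, rose from 57.3 ± 3.44 to 67.7 ± 5.23 CPM, by 0.24 (SE 0.0752, adjusted p = 0.0109), which did not pass when shGFP tumour 1 was left out (adjusted p = 0.0718).

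Among the kinesins, KIF11, KIF20A and KIF23 rose. KIF11, the motor that pushes spindle poles apart, had 21.2, 26.9 and 18.2 CPM in the shGFP tumours and 30.9, 30.5 and 32.8 CPM in the shVCAN tumours, a log2 fold change of 0.51 (SE 0.114, adjusted p = 0.000607). KIF20A and KIF23 are motors of the central spindle and cytokinesis. KIF20A rose from 19.6 ± 1.22 to 26.0 ± 0.294 CPM, by 0.41 (SE 0.106, adjusted p = 0.00247), and KIF23 rose from 22.4 ± 3.26 to 30.7 ± 2.17 CPM, by 0.45 (SE 0.109, adjusted p = 0.0012). KIF2C, which takes microtubule ends apart, had 36.9, 30.6 and 37.8 CPM in the shGFP tumours and 39.3, 40.4 and 39.6 CPM in the shVCAN tumours. Every shVCAN tumour of KIF2C lay above the shGFP tumours, and the log2 fold change of 0.18 (SE 0.0901, adjusted p = 0.117) was not called.

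Of 4 tested spindle-associated genes 2 rose. HMMR, a spindle protein that is also known as the hyaluronan receptor RHAMM, had 22.7, 18.6 and 17.4 CPM in the shGFP tumours and 29.2, 33.2 and 30.6 CPM in the shVCAN tumours. Its groups were well separated, with a log2 fold change of 0.66 (SE 0.110, adjusted p = 1.38e-05). DLGAP5, which stabilises spindle fibres near chromosomes, rose from 41.1 ± 1.21 to 49.6 ± 4.20 CPM, by 0.27 (SE 0.0821, adjusted p = 0.00894), a call lost without shVCAN tumour 3 (adjusted p = 0.0871). TPX2, which activates Aurora A on the spindle, had 98.5, 106 and 109 CPM in the shGFP tumours and 109.5, 116 and 117 CPM in the shVCAN tumours and a log2 fold change of 0.13 (SE 0.0616, adjusted p = 0.0984). ASPM, a spindle pole protein, had the lowest mean over the 6 tumours of any tested member, though CDC25C was lower in shGFP. ASPM had 7.83, 6.97 and 7.22 CPM in the shGFP tumours and 9.15, 7.83 and 9.49 CPM in the shVCAN tumours. Its log2 fold change was 0.26 (SE 0.170, adjusted p = 0.229). In TPX2 and ASPM the groups did not overlap but the change was not called. For ASPM the groups nearly touched, at 7.827 CPM in shGFP tumour 1 and 7.832 CPM in shVCAN tumour 2.

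NUSAP1 and PRC1, both encoding microtubule-bundling proteins, were not tested because their counts were too low. NUSAP1 (chromosome 15, 41332694 to 41381050, GRCh38) had 7, 3 and 6 counts in the shGFP tumours and 2, 6 and 13 in the shVCAN tumours. PRC1 (chromosome 15, 90966038 to 90995629) had 2, 5 and 2 counts and 3, 2 and 0. In GENCODE 29 a second protein-coding gene on the same strand covers 62.2% of the exonic bases of NUSAP1. For PRC1 a same-strand protein-coding gene and an antisense gene together cover 58.4%. The gene over NUSAP1 had 0 counts in every tumour and the same-strand gene over PRC1 had 6 to 13 counts per tumour. BUB1B and CENPA, the other members with a same-strand overlap, share 10.2% and 6.96% of their exonic bases and had at least 211 and 177 counts per tumour. On the opposite strand annotated genes cover 15.9% of the exonic bases of FOXM1, 12.5% of PLK1, 9.08% of CCNA2, 8.78% of CDC25C and 5.05% of KIF20A, and less of KIF2C, KIF23, HMMR and NUF2. The antisense gene of PRC1 is part of the 58.4% above. Counting without regard to strand could not keep such reads apart. Which program counted the reads is not stated in the labels, and its treatment of reads that fit more than one gene was not tested. The levels of NUSAP1 and PRC1 therefore remain unknown, and 33 members carry the comparison.

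**Figure D3:**
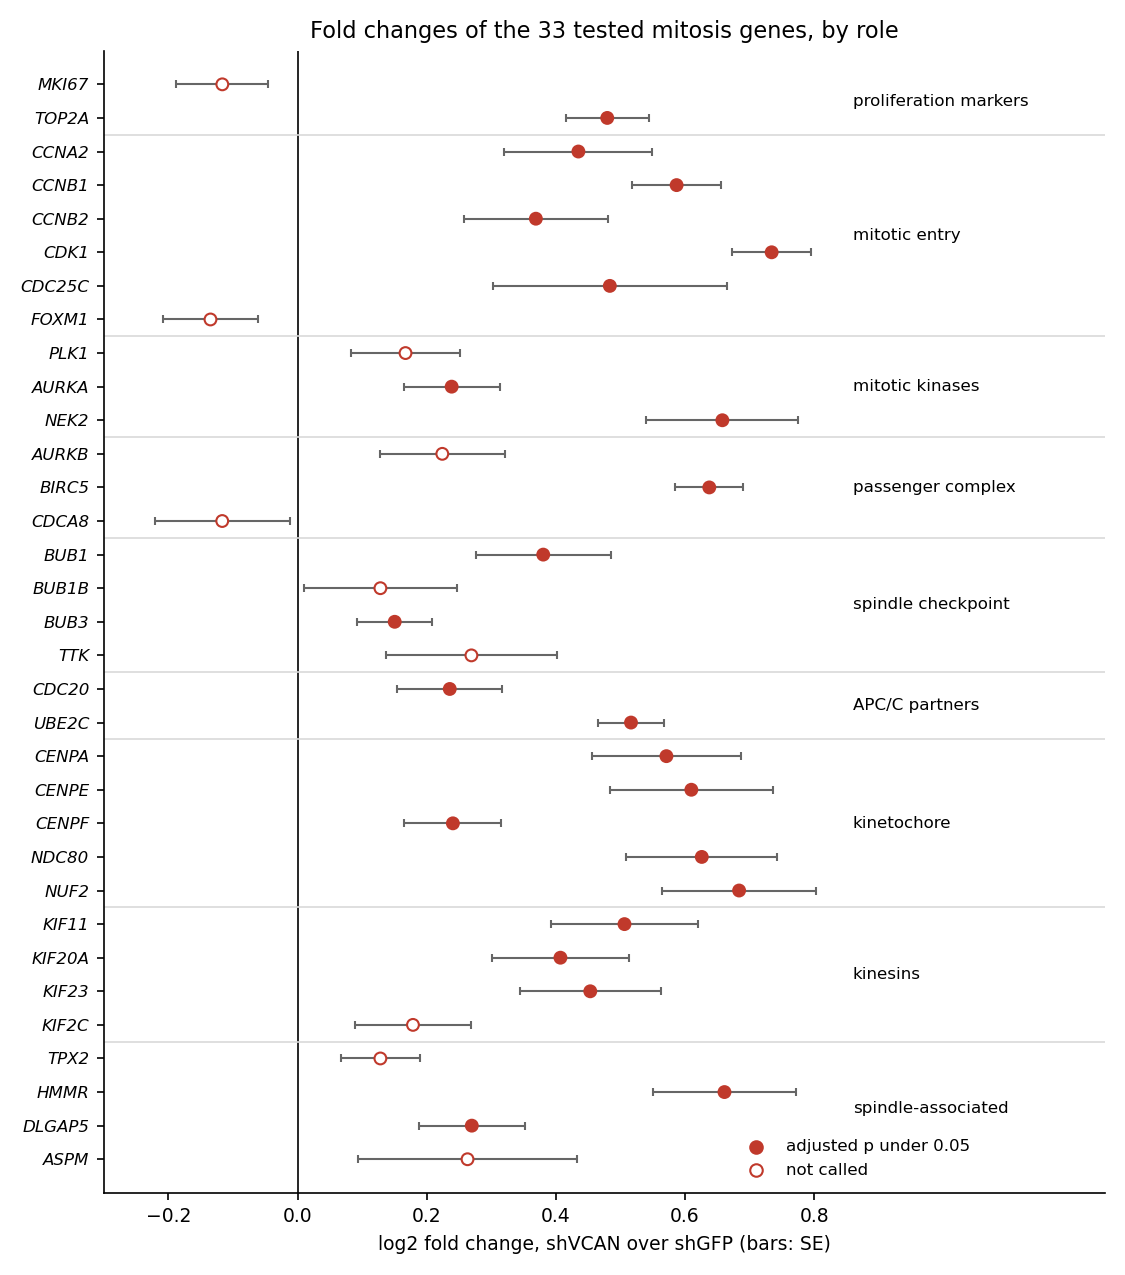
The log2 fold change of each of the 33 tested mitosis genes with its SE, by role, filled where the adjusted p was under 0.05. All 5 kinetochore genes are filled, and the only points left of 0 are MKI67 (−0.12), FOXM1 (−0.13) and CDCA8 (−0.12), all open, and these change sign with library size alone.

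Levels between genes were compared per kilobase of annotated exonic length. UBE2C stood highest at 163 ± 6.85 CPM per kilobase in shGFP and 233 ± 1.94 in shVCAN, and BIRC5 came next at 42.7 ± 1.77 and 66.5 ± 1.54. TPX2 (28.99 ± 1.49), CDK1 (27.7 ± 1.23), CDC20 (25.3 ± 3.07) and CCNB1 (23.3 ± 1.32) followed in shGFP, and neighbours in that order lay within about their SDs. In shVCAN the order of these 4 was CDK1 (46.1 ± 3.48), CCNB1 (34.9 ± 1.57), TPX2 (31.7 ± 1.12) and CDC20 (29.7 ± 1.39). MKI67 went from position 19 of 35 (5.78 ± 0.207) to position 27 (5.33 ± 0.428). The lowest tested members in both groups were CENPE (1.41 ± 0.153 and 2.15 ± 0.176) and ASPM (0.674 ± 0.0406 and 0.810 ± 0.0802). Exonic length here counts every annotated exon, so genes with long unused exons are placed too low.

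The spread among members went with transcript composition. Across the 33 tested members the log2 fold change had a Spearman correlation of −0.52 with GC content and −0.18 with exonic length, where 15997 tested genes gave −0.11 and −0.23. These are descriptions across genes that share the same 6 libraries. Of the 24 members below the median GC content of tested genes (48.4%), 19 rose, with a median of 0.44, and of the 9 at or above it, 4 rose, with a median of 0.22. FOXM1, CDCA8, PLK1, AURKB and KIF2C are among those 9 and were not called, and BIRC5, UBE2C, CDC20 and KIF20A are among them and rose. With an offset for each tumour's trend in exonic length and GC content, 19 members rose, 0 fell and the median was 0.31, against 19.5% and 19.2% of all genes. CDK1 then had a log2 fold change of 0.54, BIRC5 0.67 and UBE2C 0.33. PLK1 was called at 0.28 (adjusted p = 0.00154), and CCNA2, CCNB2, AURKA, CDC20 and DLGAP5 were no longer called (adjusted p = 0.0579, 0.0911, 0.0942, 0.13 and 0.385). MKI67 changed sign to 0.08, and FOXM1 moved from −0.13 to −0.02. The correlation with GC content was −0.44 over the members with the offset and 0.014 over all tested genes.

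**Figure D4:**
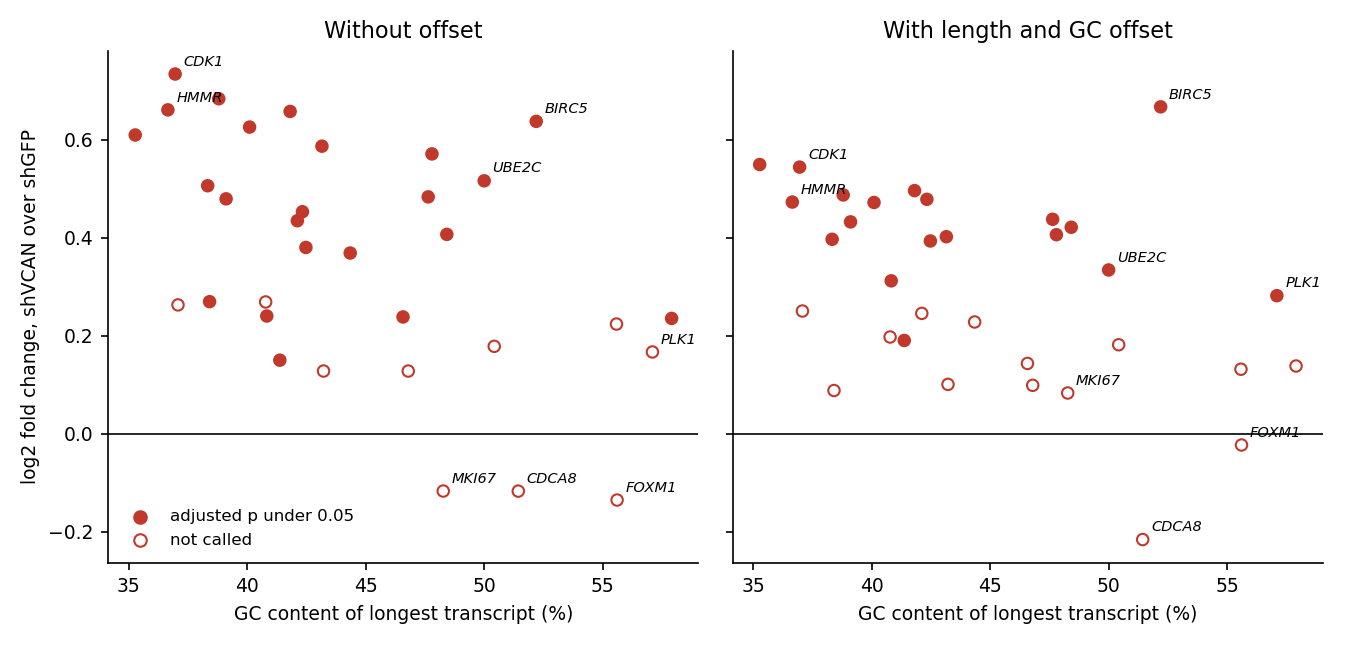
The log2 fold change of the 33 tested mitosis genes against the GC content of the longest transcript, without (left) and with (right) an offset for length and GC content, filled where the adjusted p was under 0.05. FOXM1, CDCA8 and MKI67 sit lowest on both sides, and BIRC5 keeps a high value at a GC content of 52.2%.

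Other genes of division rose more often than they fell. Of 77 tested mitosis genes outside the 35, there were 33 rises and 1 fall (42.9% and 1.3%), with a median of 0.27. Of all tested genes 19.2% rose and 21.1% fell. The kinase PBK rose from 27.0 ± 0.934 to 53.5 ± 0.470 CPM, by 0.99 (SE 0.0831, adjusted p = 4.97e-11). CKS2, a small subunit of CDK complexes, rose from 70.9 ± 6.25 to 122 ± 0.837 CPM, by 0.78 (SE 0.0664, adjusted p = 5.88e-11). ANLN, a scaffold of the cleavage furrow, rose from 46.6 ± 0.705 to 81.1 ± 1.93 CPM, by 0.80 (SE 0.0697, adjusted p = 9.85e-11), and the checkpoint protein MAD2L1 rose from 38.4 ± 2.20 to 70.8 ± 6.62 CPM, by 0.88 (SE 0.0809, adjusted p = 3.08e-10). The CDK-activating phosphatase CDC25B was the one that fell, from 91.2 ± 2.32 to 78.6 ± 7.04 CPM, with a log2 fold change of −0.21 (SE 0.0686, adjusted p = 0.0128), and was not called without shGFP tumour 2, shVCAN tumour 1 or shVCAN tumour 3 (adjusted p = 0.0699, 0.108 and 0.0552). Leaving out shGFP tumour 3 or shVCAN tumour 2 gave 3 and 4 falls in that list. Of 16 subunits of the anaphase-promoting complex and its chain-extending enzyme, 6 rose and 2 fell (37.5% and 12.5%), with a median of 0.068. The catalytic subunit ANAPC11 rose from 111 ± 1.03 to 152 ± 6.70 CPM, by 0.45 (SE 0.0578, adjusted p = 1.83e-07). UBE2S, which lengthens ubiquitin chains, rose by 0.36 (SE 0.0488, adjusted p = 4.84e-07), and the substrate-binding subunit ANAPC10 rose from 2.99 ± 0.731 to 7.14 ± 1.08 CPM. ANAPC1 and CDC23 fell, with log2 fold changes of −0.28 (SE 0.0933, adjusted p = 0.0171) and −0.24 (SE 0.0914, adjusted p = 0.0357). Both calls were lost without shGFP tumour 1 (adjusted p = 0.0586 and 0.211). ANAPC1 was also not called without shVCAN tumour 1 (adjusted p = 0.0547) or with the length and GC offset (adjusted p = 0.384). CDC23 was also not called without shGFP tumour 3, shVCAN tumour 2 or shVCAN tumour 3 (adjusted p = 0.0744, 0.0558 and 0.109). No difference between lists was tested.

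Of 20 condensin and cohesin genes 3 rose and 4 fell (15% and 20%), with a median of −0.028, near the 19.2% and 21.1% of all tested genes. The condensin subunits SMC4 and NCAPG rose, by 0.46 (SE 0.0635, adjusted p = 7.33e-07) and 0.45 (SE 0.109, adjusted p = 0.00115). The cohesin subunit SMC1A and the cohesin loader NIPBL fell, with log2 fold changes of −0.41 (SE 0.0693, adjusted p = 1.9e-05) and −0.47 (SE 0.0764, adjusted p = 9.44e-06). Among 23 tested DREAM, MuvB, NF-Y and E2F genes, which regulate the members, 5 rose and 5 fell (21.7% each), also near those shares, with a median of −0.090. Leaving out any 1 tumour reduced the falls to 2 or 3. NFYB rose from 27.2 ± 3.53 to 42.6 ± 3.22 CPM, by 0.65 (SE 0.0979, adjusted p = 3.22e-06), while its partner subunit NFYA fell, with a log2 fold change of −0.21 (SE 0.0728, adjusted p = 0.0237), a call lost without shGFP tumour 1 or 3 or shVCAN tumour 1 or 3 (adjusted p between 0.0536 and 0.154). The MuvB subunit LIN9 rose by 0.38 (SE 0.114, adjusted p = 0.00812), a call lost without shVCAN tumour 3 (adjusted p = 0.0636), and the repressor E2F7 fell from 33.4 ± 5.43 to 22.9 ± 1.36 CPM, with a log2 fold change of −0.54 (SE 0.109, adjusted p = 0.000161).

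Genes of the earlier cell cycle phases rose and fell. The 52 DNA replication genes gave 18 rises and 4 falls (34.6% and 7.7%, against 19.2% and 21.1% of all tested genes), with a median of 0.13. The falls were 2 without shGFP tumour 2 or shVCAN tumour 3. Leaving out 1 tumour gave 12 to 15 rises. The rises were 10 under DESeq2's Wald test, 10 at an adjusted p under 0.01 and 34 with library size alone. TYMS and DUT, which supply and guard thymidine nucleotides, rose by 0.58 (SE 0.0612, adjusted p = 5.77e-09) and 0.61 (SE 0.0657, adjusted p = 6.78e-09). Geminin (GMNN), which blocks a second round of origin licensing, rose from 29.5 ± 3.25 to 49.9 ± 4.48 CPM, by 0.76 (SE 0.0928, adjusted p = 8.78e-08). The helicase subunit MCM3 and the ligase LIG1 fell, with log2 fold changes of −0.48 (SE 0.0546, adjusted p = 1.8e-08) and −0.30 (SE 0.0818, adjusted p = 0.00386). LIG1 was not called with library size alone or with the length and GC offset (adjusted p = 0.210 and 0.171). Of 16 G1 cyclins, CDKs and inhibitors 6 rose and 4 fell (37.5% and 25%), with a median of 0.018. Cyclin D1 (CCND1), which couples growth signals to G1, fell from 364 ± 7.72 to 215 ± 3.33 CPM, with a log2 fold change of −0.76 (SE 0.0485, adjusted p = 1.05e-13), while its paralog CCND2 rose from 57.8 ± 1.004 to 86.5 ± 3.29 CPM, by 0.58 (SE 0.0674, adjusted p = 3.3e-08). Cyclin E2 (CCNE2) rose by 0.74 (SE 0.157, adjusted p = 0.000293), CDKN3, a phosphatase of CDKs, rose by 0.75 (SE 0.0924, adjusted p = 1.05e-07), and the inhibitors CDKN2B and CDKN2A fell, with log2 fold changes of −0.39 (SE 0.0610, adjusted p = 6.4e-06) and −0.30 (SE 0.0496, adjusted p = 1.45e-05). Over all 204 tested genes of these lists, 71 rose and 20 fell (34.8% and 9.8%, against 19.2% and 21.1% of all tested genes).

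**Figure D5:**
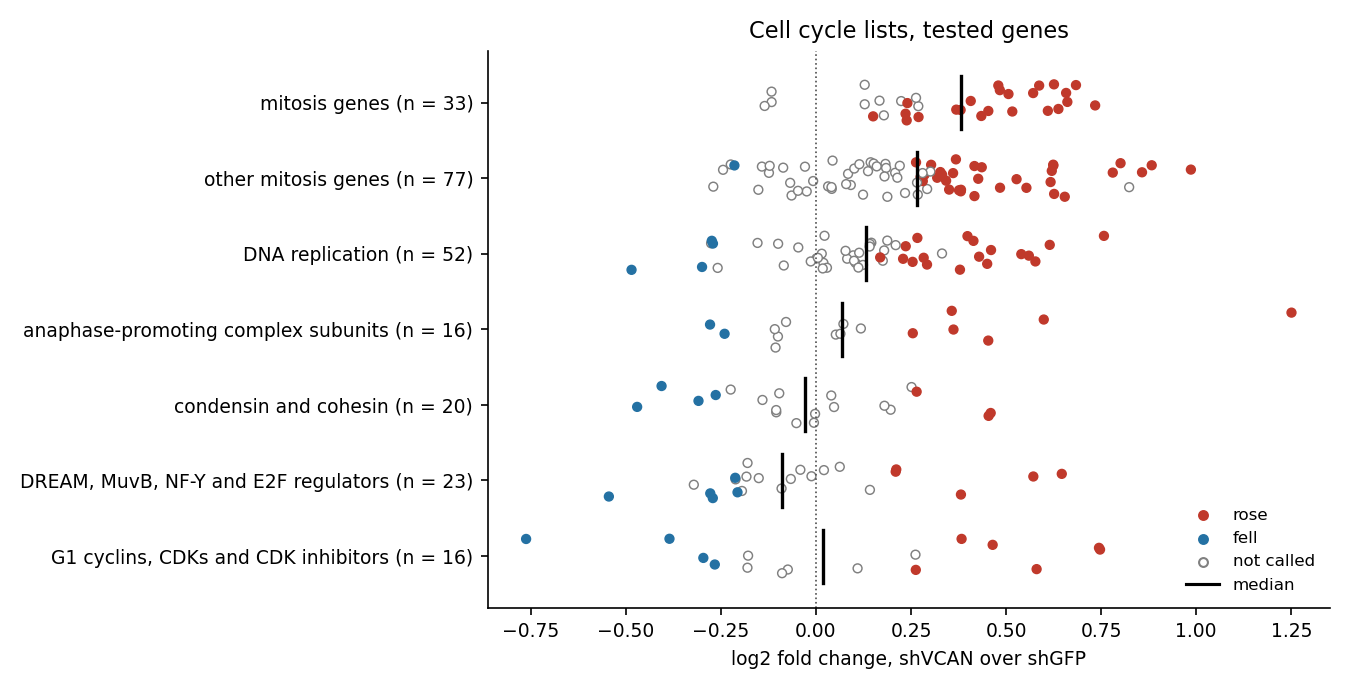
The log2 fold changes of the tested genes of 7 cell cycle lists, 1 point per gene, coloured by call, with the list's median as a black bar. The median is 0.38 for the 35-gene list, 0.27 for other mitosis genes and 0.13 for DNA replication, and between −0.090 and 0.068 for the remaining lists.

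Markers of tumour and host cells and mitochondrial RNA were compared as well. For reference, 19.2% of all tested genes rose and 21.1% fell. Of the 7 epithelial and cell line markers 5 fell and 0 rose, with a summed level of 3404 to 3706 CPM in shGFP and 3109 to 3164 CPM in shVCAN. KRT7 fell from 308 ± 36.4 to 158 ± 14.1 CPM, CDH1 (E-cadherin) from 16.5 ± 2.31 to 3.61 ± 0.814 CPM and KRT18 from 417 ± 29.2 to 287 ± 4.11 CPM. KRT8, which fell from 288 ± 22.0 to 252 ± 3.07 CPM, was not called without shGFP tumour 2 (adjusted p = 0.0999). Its log2 fold change was −0.026 with library size alone and −0.017 with the length and GC offset. Neither was called (adjusted p = 0.757 and 0.823). KRT19 and VIM were not called. The 13 mitochondrial messenger RNAs all fell and held 13.3% to 16.2% of a library in shGFP and 6.39% to 7.63% in shVCAN. Of the 10 fibroblast and pericyte markers, 8 of them tested, 5 fell and 1 rose, and their summed level was 838 to 944 CPM in shGFP and 397 to 492 CPM in shVCAN. Of 10 endothelial markers, 6 of them tested, 5 fell (172 to 180.1 CPM against 112 to 126 CPM summed). Of 10 skeletal muscle markers 7 were tested and 5 fell, but the summed levels overlap (244 to 431 CPM against 195 to 293 CPM) and in 1 of the 7 the groups did not overlap. The count of muscle falls was 2 without shGFP tumour 3 and 3 without shVCAN tumour 1. It was 7 without shGFP tumour 1, 6 without shVCAN tumour 2 and 4 without shGFP tumour 2 or shVCAN tumour 3. TNNT3 was at 0 throughout. Under DESeq2's Wald test ACTA1, MYH1 and MYH2 were not called (adjusted p = 0.195, 0.151 and 0.261). Of 14 macrophage and leukocyte markers 5 were tested and 1, CD14, fell, a call lost without shGFP tumour 2 (adjusted p = 0.0562), while 2 fell without shGFP tumour 1 or shVCAN tumour 3. Their summed levels overlap, at 7.33 to 10.4 CPM against 5.52 to 7.88 CPM, with TYROBP, CD163, C1QA, C1QB and C1QC at 0. COL1A1 made up most of the fibroblast sum (619 ± 37.5 CPM in shGFP and 300.5 ± 48.9 CPM in shVCAN). No label says whether reads of mouse origin were taken out, and the part of these cell type markers and of mitochondrial RNA in the mitosis result was not tested. With libraries scaled by their counts outside the mitochondrial messenger RNAs, 25 members rose and 0 fell. Of all 16254 tested genes 3507 rose and 3018 fell with that scaling, and their median log2 fold change was 0.037.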

How the data were processed

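RNA from 6 PC-3 xenografts (2 groups of 3) was sequenced as paired reads of 150 bases, per the labels' protocols. The authors deposited raw whole-number read counts per gene. The submitters' processing notes name Trim Galore, STAR, DESeq2 and hg38 with no version or role. How reads were counted, with which strand setting, and whether mouse reads were removed is not stated there. Of 67071 rows, 45 second copies of pseudoautosomal genes were left out. Symbols came from a table pairing identifiers with names (60370 genes) and from GENCODE 29 (289). GENCODE 29 (GRCh38) also gave coordinates, lengths and GC content.

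Groups were compared with edgeR 4.0.16 (quasi-likelihood test, TMM scaling, filterByExpr, group as the only term, 16254 genes kept) in R 4.3.3. The SE was taken as the fold change divided by the square root of F. The libraries differed by more than counting error within groups (chi-square per gene 3.22 to 5.90) and were each counted as 1 replicate. Intervals of counting alone do not cover amplification.

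The members and lists were chosen with earlier results of these data known. Named are VCAN, all 35 members and, of each other list of the pathway, called genes among the 4 smallest p-values in each direction. Of the cell type and quality lists, summed levels, genes at 0 and abundant genes are given. One marker list is not reported here. The alternatives tried were scaling by library size alone, by library size without mitochondrial messenger RNAs, by upper quartiles and by DESeq2's size factors, limma-voom (limma 3.58.1), DESeq2's Wald test (version 1.42.0), no filter on low counts, at least 1 CPM in 3 samples, the replicate number as a block, an offset for length and GC content, an adjusted p under 0.01, and each tumour left out. The offset took spline fits on genes of at least 4 CPM.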

Additional observations from a re-analysis of the deposited data

How the results depend on the processing

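Across 17 alternatives, 15 of the 23 rises were called in each. Of 561 values of single members under an alternative, 513 kept direction and side of the threshold, 27 lost the call, 17 gained one and 4 changed sign. Those 4 were not called: CDCA8 (0.049), FOXM1 (0.032) and MKI67 (0.050) with library size alone, and MKI67 with the length and GC offset (0.084). With library size alone the median log2 fold change was 0.168 over all tested genes and 0.55 over the members, 73.4% of calls were higher in place of 47.7%, and the lists outside the 35 members had 115 rises and 6 falls in place of 71 and 20. At an adjusted p under 0.01 those lists had 12 falls and 51 rises, where 2567 of all 16254 tested genes fell and 2248 rose. The cause was not tested.

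Leaving out 1 tumour gave 17 to 24 rises and 0 to 2 falls among the members, with a median of 0.31 to 0.41. The falls, MKI67 and FOXM1, appeared without shVCAN tumour 2. VCAN stayed called, between −1.83 and −1.36. In the other lists rises ran from 56 to 68 and falls from 15 to 22. Of all genes tested in these fits (16654 to 16814), 2596 to 3086 rose and 2938 to 3438 fell.

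With the replicate block 23 members rose and 0 fell, with a median of 0.39. Of all 16254 tested genes 3083 rose and 3428 fell in that fit. Same-numbered tumours did not deviate together (correlations of 0.018, 0.016 and −0.027), so the numbers were not taken as pairs, and not every tumour correlated best with its own number. The Wald test of DESeq2 called 20 members, and of its 17484 tested genes 2484 rose and 2900 fell. Members with few counts, such as CDC25C and ASPM, are the least precisely measured.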
